A study of Mus musculus with 15 samples.

Results

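The 34 mitotic genes described here were a fixed list of names, looked up by gene symbol in 3 tables of normalised counts that each hold 55291 genes. The list was chosen with earlier results of these data known. All 34 were found in each table, and all 34 passed the filter on low values, a mean of at least 10, in every comparison. The list took in genes of mitotic entry, the spindle assembly checkpoint, chromosome segregation and cytokinesis. RNA-seq was made from HY19636, a murine PDAC line labelled as mutant for p53, which came from genetically engineered C57BL/6 mice carrying p53 L/+ and Ptf1a-Cre, a driver active in pancreatic progenitors. It is a single line. The culture groups, of 3 libraries each in DMEM with serum, were control cells, cells given DON, a glutamine (Gln) antagonist, at 25 µM for 24 h (DON cells) and cells kept without Gln for 24 h (Gln-free cells). The tumor groups, also of 3 libraries each, were orthotopic tumors of HY19636 in the pancreas of B6J mice 8 to 10 weeks old. The mice received vehicle or DRP-104, a pro-drug of DON, at 3 mg per kg in 2 cycles, each of 5 days of treatment and 2 without, and tumors were taken on day 21. A tumor sample also holds host stroma and immune cells, and in such bulk RNA fewer dividing cells and less RNA per dividing cell cannot be told apart.

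Libraries held 25224177 to 48155949 recovered reads in the cultures and 16339957 to 20687784 in the tumors. The 8 epithelial markers (Krt7, Krt8, Krt18, Krt19, Epcam, Cdh1, Cldn4 and Cldn7) were detected in all 15 libraries. The control columns of both culture tables carry a vehicle name and were taken as control cells from the comparison each table holds. Fibroblast markers summed to 15.3 to 19.0 RPM (reads scaled to the library total) in those columns and to 2073 to 4335 in vehicle tumors, and the 5 B cell markers were at 0 in them. Control cells 3 was the deepest library, and 17 of 34 members were highest in it among the 3 controls. Its level was more than 1.5 times the mean of the other controls for Cenpe, Cenpf and Kif11. The labels do not say whether replicates were separate cultures, so that the p-values for cells measure the spread between these libraries.

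As background, entry into mitosis is driven by the kinase CDK1 bound to B-type cyclins, which accumulate late in the cell cycle. The checkpoint kinases and their partners then hold the anaphase-promoting complex inactive until every kinetochore is attached to the spindle. Once CDC20 activates that complex, securin and cyclin B are degraded, sister chromatids part, and the central spindle and contractile ring divide the cell. Genes of this program are transcribed mainly in G2 and M phases, in many cases through the MuvB core with B-MYB and FOXM1 bound at an element called the CHR, together with NF-Y bound at CCAAT boxes. PDAC cells use Gln as a source of nitrogen for nucleotides and as a carbon source for the tricarboxylic acid cycle, and DON blocks many Gln-using enzymes at once.

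Because nearly all members moved in 1 direction in culture, their promoters were searched for the letters of these elements. RefSeq promoters on GRCm38.p6, from 250 bases before to 50 after the annotated start, were at hand for 30 of the 34 members, of which Bub3, Ect2 and Prc1 had 2 entries. Aurkb, Incenp, Kif20a and Tpx2 had none. The letters TTTGAA or TTCGAA of the CHR were found on either strand in 23 of 30 members (76.7%) and in 5854 of 27025 genes of the whole table (21.7%). CCAAT, again on either strand, was in 22 of 30 members (73.3%) and in 41.1% of all genes. At least 2 CCAAT matches were in 16 of 30 members (53.3%) and in 13.3% of all genes. Both the CHR and CCAAT letters were in 20 of 30 members (66.7%) and in 9.65% of all genes. Letters of E2F sites (TTTCCCG or TTTGGCG or TTCCCGC or TTGGCGC) were in 6 of 30 members and in 11.1% of all genes. Of 7 E2F matches in the members' entries, which count an Ect2 site in both of its entries, 3 overlapped a CCAAT match. A gene counted once if any of its entries held a match. These are matches of letters and not measured binding.

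The promoters of 6 members are shown, each as the 150 bases before the start, read 5′ to 3′ on the strand of the gene, with matches in capitals (CHR as TTTGAA or TTCGAA and on the other strand TTCAAA, and CCAAT, which reads ATTGG on the other strand). The first 4 hold both elements in this stretch and belong to genes that were lower in both culture comparisons. Nuf2 and Pttg1 are the members with the lowest and the highest log2 fold change after DON, and neither held any of the 3 motifs in the 300-base window. For Pttg1 this window lay wholly inside the gene by its deposited coordinates, which put the start at 43426251. Bases before that start were not searched, so the lack of a match does not cover them. The windows of Kif2c and Cdca8 also lay inside the genes by their deposited coordinates.
Cdk1 (chr10:69352913-69353062, minus strand): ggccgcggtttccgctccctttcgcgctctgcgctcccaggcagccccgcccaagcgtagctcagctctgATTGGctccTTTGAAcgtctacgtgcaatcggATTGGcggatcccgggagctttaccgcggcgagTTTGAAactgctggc
Cdc20 (chr4:118437344-118437493, minus strand): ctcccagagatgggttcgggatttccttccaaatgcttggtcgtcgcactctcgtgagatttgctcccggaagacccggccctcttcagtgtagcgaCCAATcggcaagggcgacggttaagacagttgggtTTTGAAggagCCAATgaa
Ube2c (chr2:164769779-164769928, plus strand): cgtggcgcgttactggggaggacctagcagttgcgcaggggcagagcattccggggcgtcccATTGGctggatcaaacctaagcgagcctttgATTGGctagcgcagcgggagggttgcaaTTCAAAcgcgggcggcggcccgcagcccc
Top2a (chr11:99024190-99024339, minus strand): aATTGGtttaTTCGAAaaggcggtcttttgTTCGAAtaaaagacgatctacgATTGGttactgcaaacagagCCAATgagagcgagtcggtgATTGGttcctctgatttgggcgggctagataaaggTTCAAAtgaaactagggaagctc
Nuf2 (chr1:169531465-169531614, minus strand): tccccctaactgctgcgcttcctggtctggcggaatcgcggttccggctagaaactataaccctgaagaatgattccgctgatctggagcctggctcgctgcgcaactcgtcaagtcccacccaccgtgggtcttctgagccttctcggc
Pttg1 (chr11:43425982-43426131, minus strand): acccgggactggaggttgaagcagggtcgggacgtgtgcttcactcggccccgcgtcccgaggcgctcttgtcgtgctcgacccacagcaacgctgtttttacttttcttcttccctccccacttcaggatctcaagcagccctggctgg
Mad2l1 was the third member without a match. Over all entries of the members, CHR matches lay at a median of -16 bases from the start and CCAAT matches at -69. By these medians the CCAAT letters stood upstream of the CHR letters. The 20 members with both had a median log2 fold change of -2.25 after DON and -1.96 without Gln. The other 10 matched members had medians of -1.48 and -1.78, with Nuf2 and Pttg1 at the ends of the DON range. No test was made of these medians.

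**Figure D1:**
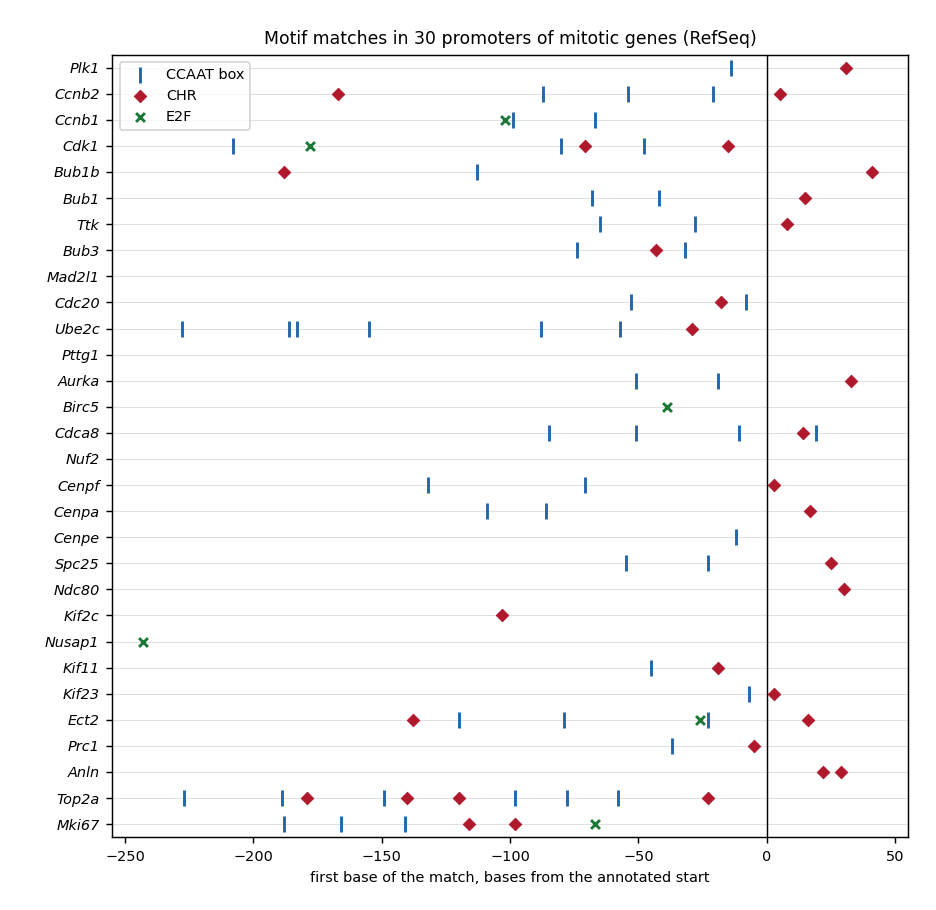
Matches of CHR (diamonds), CCAAT (bars) and E2F (crosses) letters in the promoters of 30 mitotic genes, as bases from the annotated start (0 on the x axis), on either strand and with 1 entry a gene. CHR matches cluster near the start (median -16 over all entries) with CCAAT matches upstream of them (median -69 over all entries). Mad2l1, Nuf2 and Pttg1 have no match in the window, which for Pttg1 lies inside the gene by its deposited coordinates.

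In culture, DON lowered 33 of the 34 mitotic genes, with Pttg1 as the exception, and Gln withdrawal lowered all 34 (limma, adjusted p under 0.05). Of all genes tested, 34.7% were lower and 33.3% higher after DON, and 34.9% were lower and 34.5% higher without Gln. The members' median log2 fold change was -1.97 after DON and -1.89 without Gln, beside medians over all genes of 0.023 and 0.0059. Both comparisons use the same 3 control libraries, so the 2 sets of changes are not independent of each other. The members spread widely around these medians. After DON they ranged from -3.99 for Nuf2 to 0.035 for Pttg1 with an SD of 0.85 between genes, and without Gln from -3.67 for Ccnb2 to -0.62 for Ndc80 with an SD of 0.79. The median standard error of a member was 0.12 after DON and 0.12 without Gln, so the spread between genes was several times the error of 1 gene. Without control cells 3 the counts were again 33 and 34, with medians of -1.86 and -1.85. In DRP-104 tumors no member passed the test, and the median was -0.15.

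**Figure D2:**
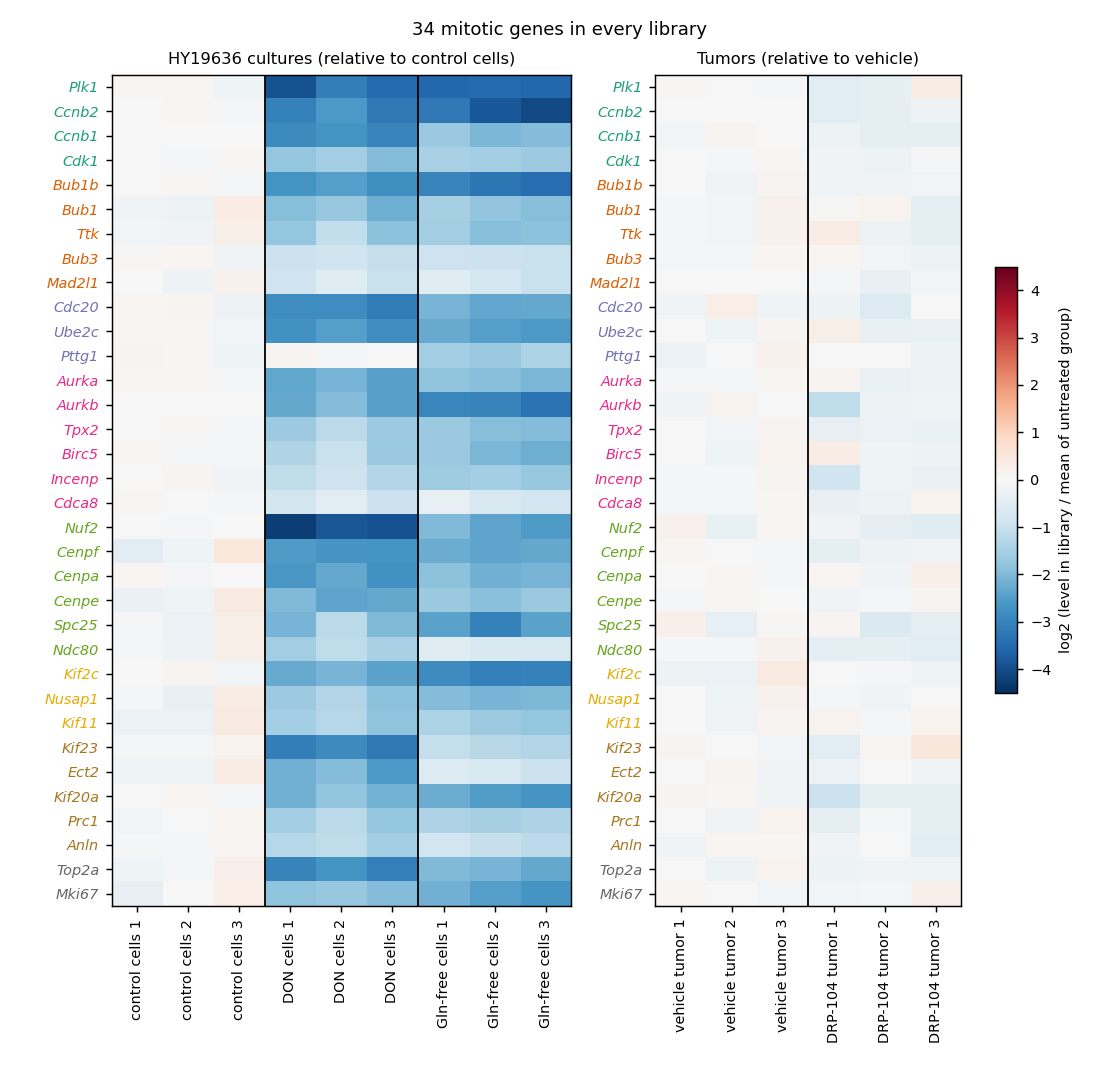
Levels of the 34 mitotic genes in each library, as log2 of the level over the mean of the 3 untreated libraries, in cultures (left) and tumors (right), with gene names colored by role. The median of the 34 genes lay between -2.17 and -1.73 in the DON cells, between -1.99 and -1.66 in the Gln-free cells and between -0.21 and -0.17 in the DRP-104 tumors.

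Values in each library are given below as normalised counts, in the order of replicates 1, 2 and 3. For cultures these are recovered reads of the 9 libraries scaled together, and for tumors the deposited values. Log2 fold changes are treated minus untreated on the log2(value + 1) scale of each deposited table and are given ± SE, with 3 libraries a group. The difference between DON and Gln-free cells is DON minus Gln-free, from the 9 culture libraries in 1 fit, in which 31.0% of all genes tested were higher and 32.3% lower in DON cells.

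Among the drivers of mitotic entry, Plk1 and the B-type cyclins fell further than Cdk1 itself. Plk1, a kinase of centrosome maturation and mitotic progression, had 3399.8, 3468 and 2818 in control cells, 213, 372 and 289 in DON cells and 281, 292 and 282 in Gln-free cells. It was 11.4-fold lower after DON (log2 -3.51 ± 0.17, adjusted p = 4.55e-10) and 11.1-fold lower without Gln (-3.47 ± 0.11, adjusted p = 1.01e-10). No treated culture came near the lowest control. Ccnb2 (cyclin B2) had 3566, 3614 and 3278 in control cells, 424, 586 and 377 in DON cells and 374, 247 and 209 in Gln-free cells. Its change was -2.95 ± 0.14 after DON and -3.67 ± 0.17 without Gln, the lowest value of any member in that comparison. All 3 Gln-free cultures lay below all 3 DON cultures, a difference of 0.76 ± 0.18 (adjusted p = 0.00211). Ccnb1 (cyclin B1) went the other way between the treatments, with 5630.1, 5748 and 5573 in control cells, 783, 884 and 725 in DON cells and 1784, 1348 and 1464 in Gln-free cells. It was 7.15-fold lower after DON (-2.84 ± 0.10) and 3.65-fold lower without Gln (-1.87 ± 0.10), and was lower in DON than in Gln-free cells by the test (-0.94 ± 0.10, adjusted p = 1.33e-06). The kinase gene Cdk1 had 4263, 4155 and 4407 in control cells, 1279.8, 1499 and 1094 in DON cells and 1558, 1498 and 1371 in Gln-free cells. It fell by less, with log2 fold changes of -1.75 ± 0.11 and -1.51 ± 0.086, and its DON and Gln-free ranges overlapped. Both cyclin genes have a pseudogene in the annotation, Ccnb1-ps and Ccnb2-ps, between which reads may be split. Plk1 overlaps Gm44985 on the opposite strand.

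In the tumors the same 4 genes had lower means on DRP-104 without passing the test. Cdk1 had 1296, 1268 and 1343 in vehicle tumors and 1161, 1117 and 1231 in DRP-104 tumors. Ccnb1 had 878, 1025 and 937 in vehicle tumors and 809.5, 707 and 702 in DRP-104 tumors, and Ccnb2 757, 775 and 783 in vehicle tumors and 554, 580.2 and 653 in DRP-104 tumors. For these 3 genes every DRP-104 tumor lay below every vehicle tumor, as for 5.75% of all genes. Their log2 fold changes were -0.16 ± 0.13, -0.36 ± 0.15 and -0.38 ± 0.15 (limma, adjusted p = 0.921, 0.916 and 0.916). Plk1 had 593, 588 and 548 in vehicle tumors and 403, 426 and 729 in DRP-104 tumors, so that DRP-104 tumor 3 stood above all vehicle tumors and the groups overlapped (log2 -0.20 ± 0.24).

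The checkpoint genes split into Bub1b, Bub1 and Ttk, which fell strongly, and Bub3 and Mad2l1, which fell less. Bub1b (BubR1), which inhibits CDC20 at unattached kinetochores, had 6034, 6307 and 5709 in control cells, 927, 1077 and 897 in DON cells and 774, 626 and 562 in Gln-free cells. It was 6.27-fold lower after DON and 9.12-fold lower without Gln (log2 -2.65 ± 0.10 and -3.19 ± 0.11), and each Gln-free culture was below each DON culture (difference 0.57 ± 0.11, adjusted p = 3.73e-04). Bub1, the kinase that marks kinetochores for checkpoint proteins, had 1367, 1303 and 1943 in control cells, 407, 476 and 333 in DON cells and 549, 445 and 408 in Gln-free cells. Control cells 3 was the highest library, and the treated cultures were all below the lowest control (-1.92 ± 0.16 and -1.68 ± 0.16). Ttk (MPS1), the kinase that starts checkpoint signaling, had 696, 670.2 and 902 in control cells, 225, 348 and 209 in DON cells and 257, 203 and 209 in Gln-free cells. It fell by log2 -1.57 ± 0.18 and -1.73 ± 0.15, with overlapping DON and Gln-free cultures. Bub3, which carries BUB1 and BUBR1 to kinetochores, had 4890.3, 5013 and 4189.9 in control cells, 2393, 2508 and 2286 in DON cells and 2482, 2422 and 2347 in Gln-free cells. Its treated values lay in a narrow band under the controls, at -0.98 ± 0.10 and -0.93 ± 0.088. Mad2l1 (MAD2), the CDC20 inhibitor, changed by -0.81 ± 0.13 and -0.76 ± 0.13. For Bub1, Bub3, Ttk and Mad2l1 the DON minus Gln-free differences of -0.21, -0.013, 0.20 and -0.017 did not pass the test, with 95% intervals of -0.56 to 0.14, -0.19 to 0.16, -0.20 to 0.59 and -0.31 to 0.28.

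None of the checkpoint genes passed the test in tumors. In 1 of the 5 every DRP-104 tumor was below every vehicle tumor, beside 5.75% of all genes. Bub1b had 836, 734 and 899 in vehicle tumors and 743, 732 and 755 in DRP-104 tumors, Bub1 599, 574 and 725 in vehicle tumors and 657, 711 and 469 in DRP-104 tumors, and Ttk 175, 174 and 216 in vehicle tumors and 238, 161 and 141 in DRP-104 tumors. Bub3 had 1576, 1579.8 and 1763 in vehicle tumors and 1755, 1523 and 1415 in DRP-104 tumors. The log2 fold changes of these 4 genes were -0.14 ± 0.15, -0.063 ± 0.20, -0.092 ± 0.27 and -0.072 ± 0.14, and in each case the tumor groups overlapped. Mad2l1, whose DRP-104 tumors were all below the vehicle tumors, changed by -0.17 ± 0.15.

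Of the 3 genes around the anaphase-promoting complex, the activator and the ubiquitin-conjugating enzyme fell while securin set itself apart. Cdc20, the activator, had 6544, 6652 and 5244 in control cells, 879, 885 and 699.8 in DON cells and 1427, 1217 and 1259.9 in Gln-free cells. It was 7.53-fold lower after DON and 4.63-fold lower without Gln (log2 -2.91 ± 0.12 and -2.21 ± 0.11), and lower in DON than in Gln-free cells (-0.67 ± 0.11, adjusted p = 1.03e-04). Ube2c, the enzyme that loads ubiquitin for the complex, had 7339, 7215 and 6381 in control cells, 1066, 1259 and 999 in DON cells and 1449, 1257 and 1169.8 in Gln-free cells. It fell by log2 -2.67 ± 0.10 and -2.41 ± 0.10, and the difference between treatments of -0.22 ± 0.10 did not pass the test (adjusted p = 0.0735). Pttg1 (securin), the inhibitor of separase, had 525, 498 and 424 in control cells, 525, 471 and 493 in DON cells and 169, 153 and 178 in Gln-free cells. The DON cultures overlapped the controls (log2 0.035 ± 0.13, adjusted p = 0.820, 95% interval -0.24 to 0.31), whereas all 3 Gln-free cultures were 2.83-fold lower on average (-1.5 ± 0.14, adjusted p = 1.12e-06). The direct difference was 1.57 ± 0.13 (adjusted p = 5.56e-08), the highest of the 34. In tumors Cdc20 had 756, 1051 and 735 in vehicle tumors and 724, 555 and 861 in DRP-104 tumors, Ube2c 1703, 1462 and 1829.9 in vehicle tumors and 1996, 1335 and 1338 in DRP-104 tumors and Pttg1 272, 333 and 375 in vehicle tumors and 334, 323 and 281 in DRP-104 tumors. These ranges overlapped, with log2 fold changes of -0.25 ± 0.22, -0.12 ± 0.19 and -0.054 ± 0.20. Cdc20 overlaps Elovl1 on the opposite strand, and the use of strand in counting is not given in the sources used here, so reads of the overlap cannot be assigned to either gene.

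The 6 genes of the Aurora kinases and the passenger complex fell in both culture comparisons. Between the treatments 5 of them differed, beside 31.0% of all genes higher and 32.3% lower in DON cells. Aurka (Aurora A), the spindle pole kinase, had 3231, 3217 and 2961 in control cells, 627, 733 and 579 in DON cells and 898, 824 and 756 in Gln-free cells. It fell by log2 -2.29 ± 0.11 and -1.90 ± 0.10 and was lower in DON than in Gln-free cells (-0.36 ± 0.10, adjusted p = 0.00687). Tpx2, which binds and activates Aurora A on spindle microtubules, had 6119.6, 6328 and 5944 in control cells, 1996, 2734 and 1963 in DON cells and 1931, 1637 and 1603 in Gln-free cells. Its changes were -1.48 ± 0.12 and -1.81 ± 0.091, so that it was higher in DON than in Gln-free cells (0.36 ± 0.11, adjusted p = 0.0122). Aurkb (Aurora B), the kinase of the chromosomal passenger complex, had 2277, 2214 and 2202 in control cells, 449, 572 and 413 in DON cells and 294, 278 and 223 in Gln-free cells. Each Gln-free culture lay below each DON culture, with changes of -2.24 ± 0.12 after DON and -3.06 ± 0.12 without Gln (difference 0.84 ± 0.13, adjusted p = 4.74e-05). Birc5 (survivin), a subunit that targets the complex to centromeres, had 3142, 2856 and 2859 in control cells, 1149, 1476 and 927 in DON cells and 934, 714 and 640.1 in Gln-free cells. It fell by -1.35 ± 0.14 and -1.95 ± 0.13 and was higher in DON cells (0.63 ± 0.15, adjusted p = 0.00208). Incenp, the scaffold subunit, did likewise at -1.14 ± 0.11 and -1.58 ± 0.092 (difference 0.48 ± 0.10, adjusted p = 6.03e-04). Cdca8 (borealin) fell least of the complex, by -0.76 ± 0.12 and -0.64 ± 0.12, with a difference of -0.10 ± 0.13 that did not pass the test and a 95% interval of -0.37 to 0.18. Of the 4 passenger complex genes 3 were higher in DON than in Gln-free cells, beside 31.0% of all genes, and Cdca8 was not called. Cdca8 overlaps 9930104L06Rik on the opposite strand.

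In tumors 3 of these 6 genes had DRP-104 values below every vehicle value, beside 5.75% of all genes. None passed the test. Aurkb had 392, 479.6 and 429 in vehicle tumors and 198, 369 and 379 in DRP-104 tumors (log2 -0.51 ± 0.27), with DRP-104 tumor 1 the lowest. Tpx2 had 1206, 1098 and 1297 in vehicle tumors and 931, 991 and 965 in DRP-104 tumors (-0.32 ± 0.14). Incenp changed by -0.46 ± 0.20, and Cdca8, with overlapping groups, by -0.14 ± 0.18. Aurka and Birc5 were each highest of all 6 tumors in DRP-104 tumor 1. Aurka had 434, 432 and 478 in vehicle tumors and 485, 365 and 382 in DRP-104 tumors (-0.14 ± 0.18) and Birc5 753, 660.5 and 826 in vehicle tumors and 939, 647 and 632 in DRP-104 tumors (-0.032 ± 0.20).

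The kinetochore genes held the lowest value after DON. Nuf2, a subunit of the NDC80 complex that binds spindle microtubules, had 991, 933 and 992 in control cells, 51.6, 68.3 and 63.5 in DON cells and 244, 186 and 166 in Gln-free cells. It was 15.9-fold lower after DON (log2 -3.99 ± 0.16, adjusted p = 8.44e-11) and 4.86-fold lower without Gln (-2.28 ± 0.15). Its partner Ndc80 had 898, 807 and 1142 in control cells, 323, 428 and 349 in DON cells and 647, 585 and 575 in Gln-free cells, with changes of -1.37 ± 0.15 and -0.62 ± 0.13, the latter the smallest of any member without Gln. Both were lower in DON than in Gln-free cells, Nuf2 by -1.68 ± 0.17 (adjusted p = 4.38e-07) and Ndc80 by -0.72 ± 0.14 (adjusted p = 3.11e-04). Another subunit, Spc25, went the other way at -1.75 ± 0.21 and -2.56 ± 0.20 (difference 0.84 ± 0.23, adjusted p = 0.00561). Within 1 complex, then, the 3 genes did not change by 1 common amount. Cenpf, a large kinetochore protein, had 1504, 1823 and 2884 in control cells, 352, 328 and 320.2 in DON cells and 444, 402 and 415 in Gln-free cells. Its controls spread widely, with control cells 3 the highest, and all treated cultures lay far below them (-2.59 ± 0.18 and -2.22 ± 0.19). Cenpa, the histone H3 variant of centromeres, had 3855, 3479 and 3593 in control cells, 591, 738 and 555 in DON cells and 1004, 822 and 849 in Gln-free cells. It fell by -2.55 ± 0.11 and -2.01 ± 0.10 and was lower in DON cells (-0.51 ± 0.11, adjusted p = 0.00100). Cenpe, a motor of chromosome congression, had 2191, 2385 and 3560.1 in control cells, 689, 529 and 556 in DON cells and 859.9, 738 and 847 in Gln-free cells. Its changes were -2.18 ± 0.16 and -1.68 ± 0.16, with DON again lower (-0.47 ± 0.15, adjusted p = 0.0148). The difference for Cenpf, -0.33 ± 0.17, did not pass (adjusted p = 0.102, 95% interval -0.70 to 0.033).

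In tumors Ndc80 had 355, 355 and 430.3 in vehicle tumors and 289.8, 279 and 271 in DRP-104 tumors, and Cenpf 878, 809 and 772 in vehicle tumors and 603, 697 and 739 in DRP-104 tumors. For both genes every DRP-104 tumor was below every vehicle tumor, as for 5.75% of all genes. Their changes were -0.44 ± 0.18 and -0.27 ± 0.15, and neither gene passed the test. Nuf2 had 478, 337 and 453 in vehicle tumors and 375, 319.5 and 288 in DRP-104 tumors (-0.36 ± 0.21), with an overlap. Cenpa had 864, 928 and 815 in vehicle tumors and 927, 782 and 1029 in DRP-104 tumors and Cenpe 1107, 1177 and 1139.7 in vehicle tumors and 1017, 1083 and 1245 in DRP-104 tumors. These 2 overlapped with values near 0, 0.064 ± 0.16 and -0.038 ± 0.14, and Spc25 was at -0.28 ± 0.29.

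The 3 genes of spindle motors and microtubule binders fell in both culture comparisons. Kif2c (MCAK), which depolymerizes microtubule ends, had 2254, 2442 and 2076 in control cells, 466, 526 and 426 in DON cells and 314, 265 and 275 in Gln-free cells. It was 4.81-fold lower after DON and 7.78-fold lower without Gln (-2.26 ± 0.11 and -2.96 ± 0.11, difference 0.73 ± 0.11, adjusted p = 4.63e-05). Nusap1, which bundles microtubules around chromosomes, had 1770.1, 1511 and 2423 in control cells, 619, 754 and 523 in DON cells and 490.2, 442 and 469 in Gln-free cells. It fell by -1.59 ± 0.16 and -1.97 ± 0.15 and was also higher in DON cells (0.42 ± 0.16, adjusted p = 0.0285). Nusap1 overlaps Oip5 on the opposite strand. Kif11 (Eg5), the motor that makes the spindle bipolar, had 2689, 2722 and 4336 in control cells, 1124, 1348 and 919 in DON cells and 1223, 1049 and 968 in Gln-free cells. Its changes of -1.51 ± 0.17 and -1.53 ± 0.16 rested on controls of which 1 stood well above the others. Their difference was 0.054 ± 0.17, with a 95% interval of -0.30 to 0.41. In tumors Kif2c had 319, 309 and 485 in vehicle tumors and 377, 347 and 324 in DRP-104 tumors, Nusap1 661, 585 and 758 in vehicle tumors and 626, 594 and 659.8 in DRP-104 tumors and Kif11 904, 797 and 976 in vehicle tumors and 1006, 854 and 986 in DRP-104 tumors. All 3 overlapped, at -0.058 ± 0.22, -0.086 ± 0.16 and 0.090 ± 0.15, the last of these the highest tumor value among the members.

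The genes of the central spindle and of cytokinesis held the widest gap between the treatments. Kif23 (MKLP1), the motor subunit of centralspindlin, had 5416, 5384 and 6450.1 in control cells, 669, 792 and 613 in DON cells and 2721, 2409 and 2322 in Gln-free cells. It was 8.38-fold lower after DON (log2 -3.07 ± 0.11) but 2.28-fold lower without Gln (-1.19 ± 0.10), a difference of -1.85 ± 0.11 (adjusted p = 1.38e-09), the lowest of the 34. Ect2, the RHOA exchange factor that centralspindlin recruits, had 4984, 5064 and 7166 in control cells, 1282, 1500 and 965 in DON cells and 3751, 3507 and 2966 in Gln-free cells. It showed the same order at -2.21 ± 0.16 and -0.71 ± 0.14 (difference -1.46 ± 0.16, adjusted p = 8.10e-07). Anln (anillin), the scaffold of the contractile ring, fell by -1.33 ± 0.10 and -1.0 ± 0.10 and was slightly lower in DON cells (-0.29 ± 0.10, adjusted p = 0.0203). Kif20a (MKLP2), the motor that brings the passenger complex to the midzone, had 3248, 3523 and 3159 in control cells, 743, 973 and 759 in DON cells and 696, 573 and 532 in Gln-free cells. It went with Aurkb rather than with Kif23 in sign, falling by -2.02 ± 0.11 and -2.45 ± 0.11 (difference 0.46 ± 0.12, adjusted p = 0.00368). Prc1, which bundles midzone microtubules, had 2466, 2681 and 2829.9 in control cells, 915, 1137 and 796 in DON cells and 1025, 953 and 1004 in Gln-free cells. It fell by -1.51 ± 0.12 and -1.39 ± 0.092, and the difference of -0.081 ± 0.11 was not called (95% interval -0.32 to 0.16). Kif20a overlaps Cdc23 and Prc1 overlaps Rccd1, both on the opposite strand.

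In tumors Kif20a had the lowest log2 fold change of the 34. It had 591, 563 and 488 in vehicle tumors and 280.2, 409.5 and 408 in DRP-104 tumors, so that the groups did not overlap (log2 -0.60 ± 0.21, unadjusted p = 0.0199, adjusted p = 0.916). In the FPKM table of the same kind of tumors, whose columns could not be matched to these libraries, its change was 0.012. Kif23 had 1651, 1516 and 1410.2 in vehicle tumors and 1111, 1617 and 2187 in DRP-104 tumors, with DRP-104 tumors 1 and 3 at opposite ends (0.052 ± 0.24). Ect2 had 1427, 1501 and 1257 in vehicle tumors and 1159, 1382 and 1252 in DRP-104 tumors and Prc1 816, 729 and 899 in vehicle tumors and 613, 773 and 619 in DRP-104 tumors. Both overlapped (-0.14 ± 0.14 and -0.29 ± 0.17), as did Anln (-0.21 ± 0.16).

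Of the 2 genes of chromosome structure, Top2a, the topoisomerase that untangles sister chromatids, had 12703, 13746 and 16645 in control cells, 1793, 2251 and 1687 in DON cells and 3583, 3379 and 2912 in Gln-free cells. It was 7.58-fold lower after DON and 4.28-fold lower without Gln (-2.92 ± 0.12 and -2.10 ± 0.11, difference -0.79 ± 0.12, adjusted p = 3.03e-05). Mki67, the Ki67 protein that coats mitotic chromosomes and marks cycling cells, had 5541, 7197 and 8990.4 in control cells, 2089.7, 2246 and 1880 in DON cells and 1608, 1286 and 1149.5 in Gln-free cells. It was 3.46-fold lower after DON and 5.24-fold lower without Gln (-1.79 ± 0.14 and -2.39 ± 0.16), and higher in DON than in Gln-free cells (0.63 ± 0.15, adjusted p = 0.00168). In tumors Top2a had 3711, 3129 and 4111 in vehicle tumors and 3109.7, 3277 and 3173 in DRP-104 tumors and Mki67 2182, 2054 and 1899 in vehicle tumors and 1882, 1970.2 and 2386 in DRP-104 tumors. The groups overlapped for both, with log2 fold changes of -0.19 ± 0.14 and 0.019 ± 0.15 and 95% intervals of -0.52 to 0.14 and -0.31 to 0.35.

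Set directly against each other, DON and Gln withdrawal differed for 23 of the 34 genes, in both directions. Of the 34, 12 were higher and 11 lower in DON than in Gln-free cells, and the median difference was -0.049 with a range of -1.85 to 1.57. That median was not firm, at -0.21 without DON cells 2, 0.014 without DON cells 3, -0.0030 without Gln-free cells 1 and -0.10 without Gln-free cells 3. By number these shares, 35.3% and 32.4%, were near those over all genes tested, 31.0% and 32.3%. A difference of more than 1 on the log2 scale was seen for 4 genes, Pttg1 upward and Kif23, Nuf2 and Ect2 downward. The genes higher in DON cells were Ccnb2, Bub1b, Pttg1, Tpx2, Aurkb, Birc5, Incenp, Spc25, Kif2c, Nusap1, Kif20a and Mki67. Those lower were Ccnb1, Cdc20, Aurka, Cenpa, Cenpe, Nuf2, Ndc80, Kif23, Ect2, Anln and Top2a. The calls of Tpx2, Cenpe, Nusap1 and Anln were each lost under 3 to 5 of the alternatives tried, by leaving out single DON or Gln-free cultures among them. By role, 4 of 6 genes of the Aurora and passenger complex group and 2 of 3 spindle motor and microtubule genes were higher in DON cells. Lower were 4 of 6 centromere and kinetochore genes and 3 of 5 midzone and cytokinesis genes. With so few genes a role, and 31.0% and 32.3% of all genes called, these counts do not set the roles apart. No difference between roles was tested.

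**Figure D3:**
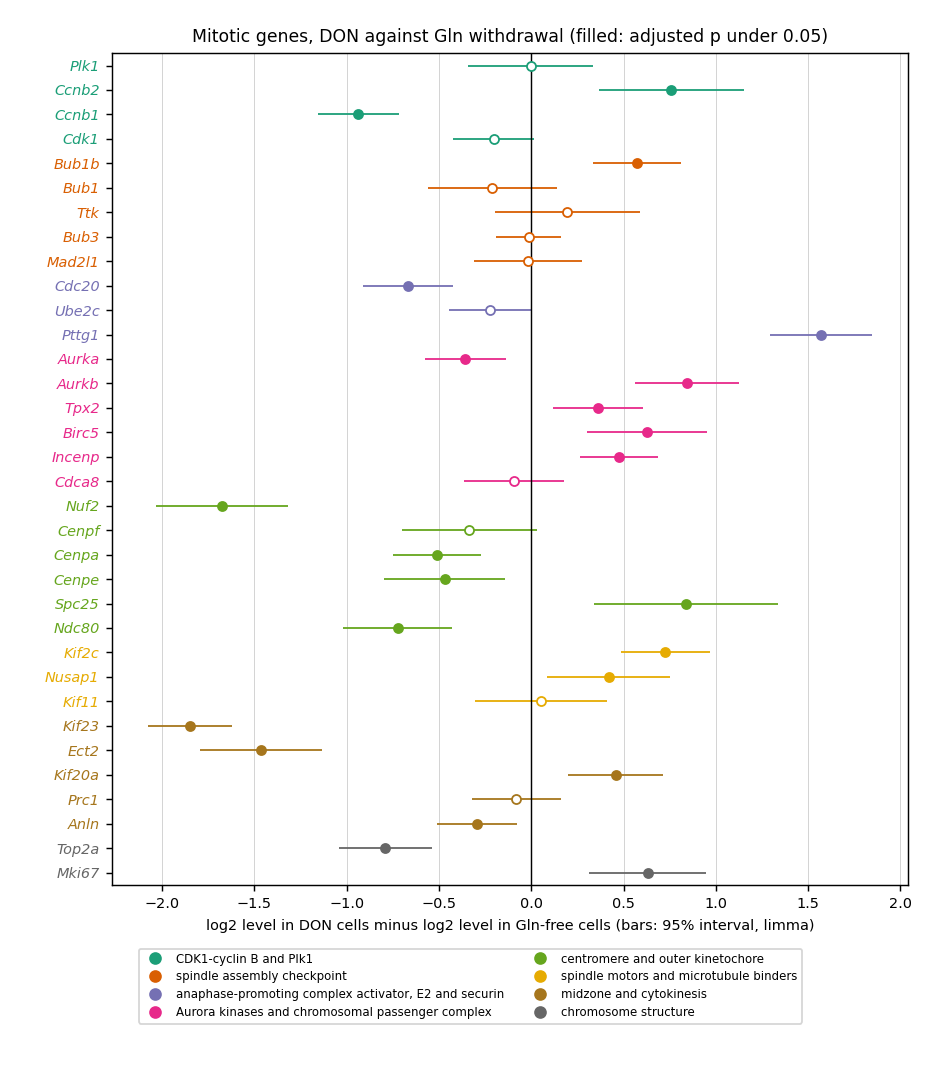
Log2 level in DON cells minus log2 level in Gln-free cells for each mitotic gene (x axis, points with 95% intervals from limma, 3 libraries a group), filled where the adjusted p was under 0.05 and colored by role. Pttg1 lies at 1.57 on the right, and Nuf2, Ect2 and Kif23 lie at -1.68, -1.46 and -1.85 on the left.

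On DRP-104, 0 of 34 mitotic genes were called in tumors by limma, by edgeR or by DESeq2, and limma called 0 of 15454 genes (0%). At an unadjusted p under 0.05 limma had 5 members, Ccnb1, Ccnb2, Tpx2, Ndc80 and Kif20a, beside 775 of all genes (5.01%). The log2 fold change was below 0 for 30 of 34 members, and the share of all genes below 0 was not worked out. The members' median was -0.15 beside -0.010 over all genes, and 31.1% of all genes lay at or below it. The range ran from -0.60 for Kif20a to 0.090 for Kif11. All members were measured in the same tumors and are not independent of each other, so their number adds no replicates. In 10 members (Cdk1, Ccnb1, Ccnb2, Mad2l1, Tpx2, Aurkb, Incenp, Cenpf, Ndc80 and Kif20a) every DRP-104 tumor was below every vehicle tumor, and in 0 members above. Over all genes 5.75% had DRP-104 tumors all below and 4.83% all above. The 3 DRP-104 tumors had similar medians over the members, -0.17, -0.21 and -0.21 relative to the vehicle mean. The 95% intervals of the members together spanned -1.15 (Aurkb) to 0.59 (Kif23), and each of the 34 reached below 0. All but those of Ccnb1, Ccnb2, Tpx2, Ndc80 and Kif20a also reached above 0. Without DRP-104 tumor 2 the median was -0.099, and without DRP-104 tumor 1 -0.20. In the FPKM table it was -0.26, again with 0 members called, but Kif20a was at 0.012 there, and Kif11, Kif23, Cenpa and Mki67 were below 0. The separation of the tumor groups was also of other genes there. Of the 10 genes without overlap in the normalised counts, 2 (Ccnb2 and Tpx2) had none in the FPKM table, where 12 members in all had every DRP-104 column below every vehicle column and 0 above. The share over all genes was not worked out for the FPKM table, so this count has no background beside it.

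No marker of a host cell type passed the test in these tumors. Sums over the markers of a cell type were compared by their ranges only and were not tested. How often such sums separate was not worked out. The 8 fibroblast markers summed to 2073 to 4335 RPM in vehicle and 1026 to 1639 in DRP-104 tumors, and the 5 endothelial markers to 95.1 to 114 and 61.8 to 82.7, in both cases with no overlap. T cell markers summed to 80.6 in DRP-104 tumor 3, to 2.20 in the lowest DRP-104 tumor and to 2.76 to 5.46 in vehicle tumors, so that the groups overlapped. Neutrophil, macrophage, B cell and acinar sums overlapped between the groups. The epithelial sum was 6478 to 8503 in vehicle and 6649 to 9590 in DRP-104 tumors. The part of these cells in the tumor values of the mitotic genes was not tested. In the cultures, the epithelial sum was 12590 to 15010 in control, 3936 to 4167 in DON and 5403 to 6003 in Gln-free cells.

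**Figure D4:**
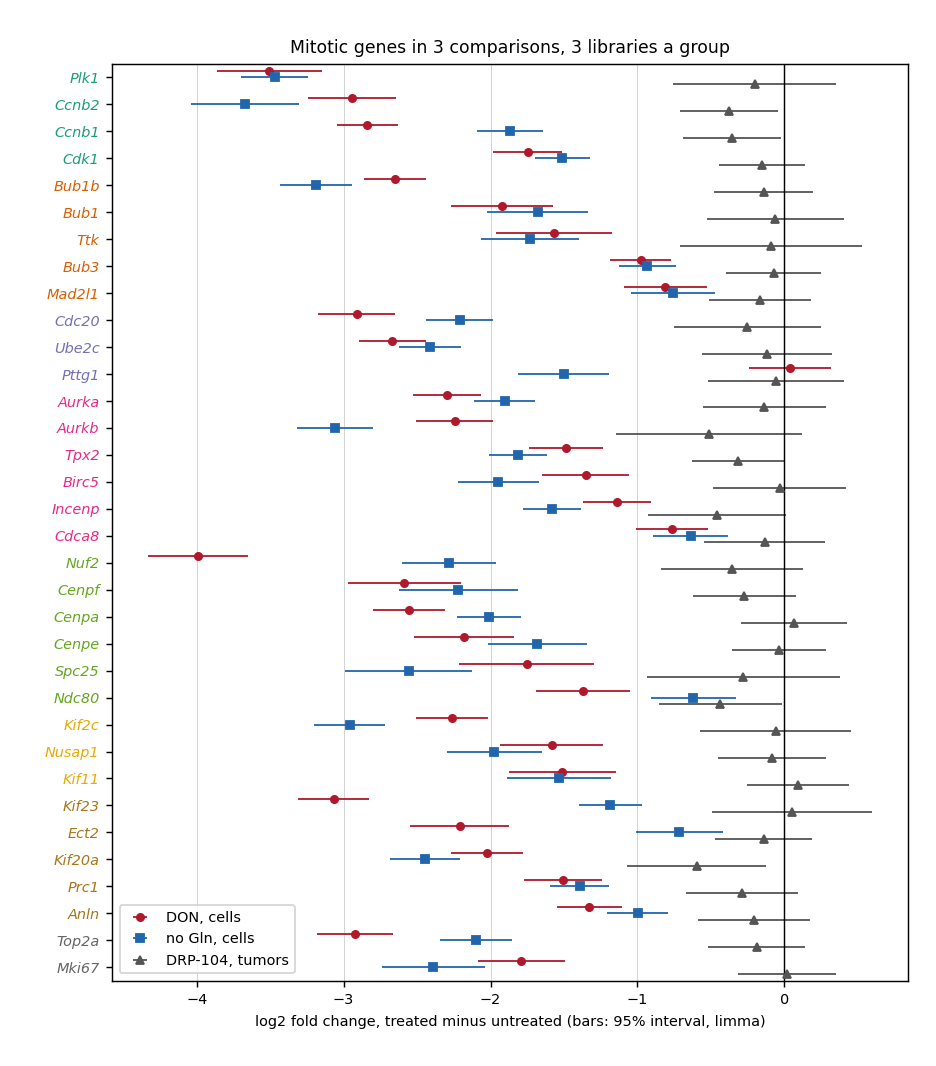
Log2 fold changes of the 34 mitotic genes after DON (circles) and without Gln (squares) in cells and on DRP-104 in tumors (triangles), with 95% intervals from limma and 3 libraries a group. The culture values lie at medians of -1.97 and -1.89, and the tumor values at a median of -0.15 with intervals that are wide relative to their distance from 0.

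The difference between the tumor effect and the culture effect was tested for each gene as an interaction. The DRP-104 effect in tumors was higher, which here means less negative, than the DON effect in cells for 33 of 34 members, beside 19.1% of all genes, and higher than the effect of Gln withdrawal for 32 of 34, beside 18.6%. The medians of these differences were 1.77 and 1.70. The calls were least firm for Mad2l1, Incenp and Cdca8 against DON and for Mad2l1 and Ect2 against Gln withdrawal, each lost under 10 to 13 alternatives. Against DON they ranged from -0.089 ± 0.23 for Pttg1, the one gene not called, to 3.63 ± 0.26 for Nuf2. Against Gln withdrawal the drivers of entry were at 1.36 for Cdk1, 1.51 for Ccnb1, 3.30 for Ccnb2 and 3.27 for Plk1, with Ccnb2 the highest of the 34. The checkpoint genes were at 1.62 for Bub1, 3.05 for Bub1b, 0.86 for Bub3, 1.64 for Ttk and 0.59 for Mad2l1. Cdc20 was at 1.96, Ube2c at 2.29 and Pttg1 at 1.45. In the Aurora group Aurka was at 1.77, Tpx2 at 1.5, Aurkb at 2.54, Birc5 at 1.91 and Incenp at 1.12, and Cdca8 at 0.50 was not called (adjusted p = 0.0820). The kinetochore genes were at 2.07 for Cenpa, 1.64 for Cenpe, 1.95 for Cenpf, 1.92 for Nuf2 and 2.28 for Spc25, and Ndc80 at 0.18 was not called (adjusted p = 0.543). Kif11 was at 1.62, Kif2c at 2.90 and Nusap1 at 1.89. The last groups held Kif20a at 1.85, Kif23 at 1.24, Prc1 at 1.11, Ect2 at 0.57, Anln at 0.79, Top2a at 1.91 and Mki67 at 2.41. Tumors and cultures differ in agent, dose, time and cell makeup, and which of these the difference comes from cannot be told apart.

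Levels can be set between genes only per length, here as recovered reads per kilobase of gene in units of RPM. In control cells Cdc20 and Ube2c were the highest of the 34, at 106 ± 9.30 and 98.3 ± 3.40 (SD, n = 3), followed by Top2a at 85.5 ± 15.9 and Cenpa at 83.2 ± 5.01. Cdc20 and Ube2c overlapped in their ranges, and Top2a overlapped Cdc20, Ube2c and Cenpa, so that the order within these pairs was not firm. Bub3, next in control cells at 70.5 ± 3.83, had the highest mean in every other group, at 39.6 ± 1.58 in DON cells, 39.8 ± 0.80 in Gln-free cells, 42.7 ± 2.63 in vehicle tumors and 40.1 ± 2.70 in DRP-104 tumors. In control cells its range overlapped those of Ccnb1 and Ccnb2, and in both tumor groups that of Ube2c, next in order. Its place in these groups was therefore not firm. Pttg1 moved from place 32 of 34 in control cells, at 8.89 ± 0.63, to place 17 in DON cells, at 10.1 ± 0.56. Nuf2 went from place 29, at 12.5 ± 0.85, to place 34 in DON cells, at 0.863 ± 0.12. Cenpf was the lowest in control cells, at 5.81 ± 2.29. Per length, vehicle tumors held less than control cells for 33 of 34 members, with Pttg1 at 10.4 ± 1.41 as the exception. These levels are scaled to library totals, which in tumors also hold reads of host cells, and the difference was not tested.

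Around the 34, other genes of mitosis and the cell cycle were followed in 7 lists, whose counts stand beside shares over all genes of 34.7% lower and 33.3% higher after DON and 34.9% lower and 34.5% higher without Gln. The 28 other spindle, motor and cytokinesis genes behaved most like the members by their median, with 28 lower after DON (median -1.92) and 26 lower without Gln (median -2.10), and 0 higher in either. Arhgef39 (-2.75 ± 0.22) and Psrc1 (-2.73 ± 0.17) were lowest after DON, and Ckap5 (-0.97 ± 0.11) and Kifc5b (-0.44 ± 0.14) least lowered. Without Gln, Psrc1 (-3.82 ± 0.19) and Cdca3 (-3.61 ± 0.12) were lowest, and Kif20b (-0.43 ± 0.19) and Kif18a (0.25 ± 0.19), a motor of chromosome alignment, were not called.

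The 30 other kinetochore and centromere genes were mixed. After DON 16 were lower and 1 higher (median -0.46), and without Gln 17 were lower and 4 higher (-0.56). Cenpm was the lowest in both, at -2.02 ± 0.17 and -2.85 ± 0.26. Next without Gln was Cenpi (-1.58 ± 0.13). At the other end stood Dsn1 (0.78 ± 0.15) and Cenpp (0.33 ± 0.20, not called) after DON, and Ska2 (1.11 ± 0.16) and Cenpq (0.85 ± 0.19) without Gln. The 20 subunits and regulators of the anaphase-promoting complex had 10 lower and 2 higher after DON and 12 lower and 4 higher without Gln, beside 34.7% and 34.9% of all genes lower. Fbxo5 (EMI1), an inhibitor of the complex, fell in both (-1.41 ± 0.18 and -1.66 ± 0.17), with Trip13 lowest beside it after DON (-1.41 ± 0.12) and Anapc5 without Gln (-1.78 ± 0.093). The subunit genes Anapc16 (1.08 ± 0.10 and 0.95 ± 0.089) and Anapc10 (0.76 ± 0.14 and 1.03 ± 0.15) rose in both.

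Of 20 cohesin and condensin genes, 17 were lower and 1 higher after DON, and 11 lower and 5 higher without Gln. The condensin genes Ncaph (-2.80 ± 0.14) and Smc4 (-2.05 ± 0.17) were lowest after DON, and Espl1, the separase gene (-2.73 ± 0.16), and Ncapd2 (-2.67 ± 0.090) without Gln. The highest were the cohesin genes Pds5a (0.43 ± 0.12) and Stag2 (0.32 ± 0.19, not called) after DON, and Wapl, which releases cohesin (1.15 ± 0.17), and Stag2 (1.05 ± 0.19) without Gln. Among 17 regulators of entry into mitosis 12 were lower in each comparison, and 1 and 4 were higher. Gtse1 (-3.01 ± 0.12) and Ccnf (-2.86 ± 0.11) led after DON, and Ccnf (-3.55 ± 0.11) and the phosphatase Cdc25b (-2.81 ± 0.10) without Gln. Ccnh, the cyclin of the CDK-activating kinase, rose in both (0.52 ± 0.11 and 0.73 ± 0.10), with Cdk7 beside it after DON (0.28 ± 0.12, not called) and Ensa without Gln (0.64 ± 0.077).

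The 24 transcription factors of cell cycle genes and their regulators had 13 lower and 6 higher after DON, and 10 lower and 10 higher without Gln, beside 34.9% and 34.5% of all genes. E2f2 (-2.60 ± 0.15) and E2f8 (-2.50 ± 0.15) were lowest after DON, and Foxm1, the activator of G2 and M genes named above (-2.49 ± 0.11), and E2f8 (-2.36 ± 0.14) without Gln. Trp53 (1.18 ± 0.14) and Cdkn1a (p21), a p53 target that inhibits CDKs (0.90 ± 0.10), were highest after DON. Lin52, a subunit of the MuvB core (1.5 ± 0.15), and Cdkn1a (1.46 ± 0.091) were highest without Gln. Of 23 S phase and licensing genes 19 fell after DON and 15 without Gln, with 0 higher in either. The ribonucleotide reductase genes Rrm2 (-3.08 ± 0.11) and Rrm1 (-2.54 ± 0.091) were lowest after DON, and Rrm2 (-2.55 ± 0.13) and the cyclin gene Ccne1 (-2.14 ± 0.21) without Gln. Orc6 (0.20 ± 0.10) and Pcna (-0.015 ± 0.10) after DON, and Gins3 (0.48 ± 0.21) and Ccne2 (0.38 ± 0.24) without Gln, were the highest and were not called. No gene of the 7 lists was called in tumors, where the list medians lay between -0.14 and 0.021. In 7 of the 28 other spindle genes all DRP-104 tumors were below all vehicle tumors, as were 3 of 17 entry regulators, 3 of 24 transcription factors, 1 of 20 genes each of the complex list and the cohesin list, and 0 of 30 kinetochore and 0 of 23 S phase genes, beside 5.75% of all genes. All DRP-104 tumors were above all vehicle tumors in 1 of the 24 transcription factors and in 0 genes of the other lists, beside 4.83% of all genes.

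**Figure D5:**
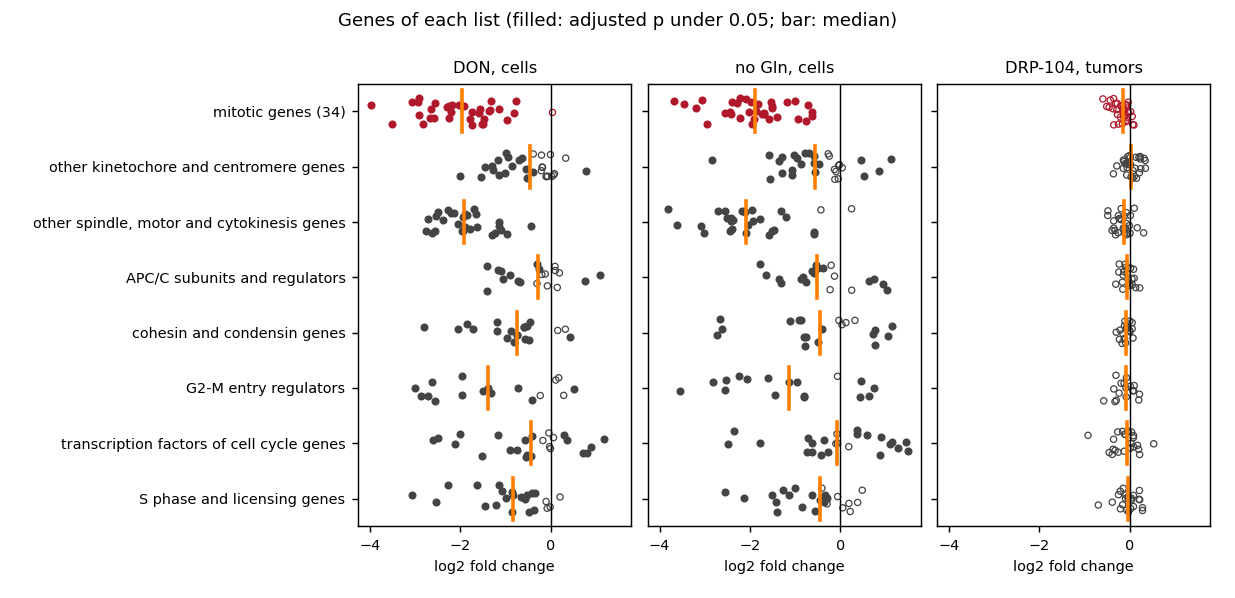
Log2 fold changes of each gene in the 34 mitotic genes (red) and 7 related lists (grey) after DON, without Gln and on DRP-104, filled where the adjusted p was under 0.05, with the median of each list as a bar. After DON the medians of the mitotic genes and of the other spindle genes are near -2, at -1.97 and -1.92, and those of the other lists lie between -1.40 and -0.29.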

How the data were processed

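Bulk RNA-seq of 15 libraries in 5 groups of 3 was analyzed. The study's methods name HISAT2 and DESeq2, and the submitters' processing notes also list CASAVA and STAR 2.5 with no role given. The counting tool and the use of strand are not given in the sources used here. The notes name GRCm39, whereas 21 of 34 members had exactly the coordinates of a GRCm38 annotation. The signal the authors deposited is the gene count divided by 1 size factor per library, within each comparison. Values were whole reads for at least 99.9584% of genes in each library (tolerance 0.0051). Of genes with 1 to 20 reads, 69.6 to 72.7% had even numbers in cultures and 41.9 to 46.5% in tumors, and the reason was not tested. No molecular identifiers are named, so read depth speaks only of counting error. The authors' FPKM table holds tumors only and was an alternative, since its columns did not match the numbered tumors (same-numbered correlation at most 0.0845).

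In R 4.3.3, limma 3.58.1 (lmFit, eBayes with trend) was run on log2(value + 1) of all genes with a mean of at least 10, with Benjamini-Hochberg adjustment and calls at an adjusted p under 0.05. Each fit was checked on simulated data. For DON against Gln-free cells, the reads of all 9 cultures were scaled jointly before the fit, and tumors were compared with cells by an interaction contrast. Alternatives were edgeR 4.0.16 and DESeq2 1.42.0 on recovered reads, quantile normalization, a pseudocount of 5, no filter or a mean of at least 50, a threshold of 0.01, a replicate block, separate variances for cells and tumors, and leaving out each library. RefSeq promoters were searched with Python 3.11.15. The members, pathway lists and markers were chosen with earlier results of these data known. All members were named. Values per library were given for called members, up to 4 a role in order of the absolute change after DON, and for the lowest and highest member of each comparison. Of each pathway list the 2 lowest and 2 highest genes tested were named. Some items that these rules would name are not reported here.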

Additional observations from a re-analysis of the deposited data

Results flagged for a closer look

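The effect of DRP-104 in tumors differed from that of DON in cells, by the interaction test with limma, for 33 of the 34 mitotic genes, each with the tumor effect less negative. As log2 of the tumor effect minus the culture effect, the drivers of entry were at 1.59 for Cdk1, 2.48 for Ccnb1, 2.57 for Ccnb2 and 3.30 for Plk1. The checkpoint genes were at 1.86 for Bub1, 2.51 for Bub1b, 0.91 for Bub3, 1.48 for Ttk and 0.64 for Mad2l1. Cdc20 was at 2.66 and Ube2c at 2.55. The Aurora and passenger complex genes were at 2.16 for Aurka, 1.17 for Tpx2, 1.73 for Aurkb, 1.32 for Birc5, 0.63 for Cdca8 and 0.68 for Incenp. The kinetochore genes were at 2.62 for Cenpa, 2.14 for Cenpe, 2.31 for Cenpf, 3.63 for Nuf2, 0.94 for Ndc80 and 1.47 for Spc25. Kif11 was at 1.6, Kif2c at 2.21 and Nusap1 at 1.5. The midzone and cytokinesis genes were at 1.43 for Kif20a, 3.12 for Kif23, 1.22 for Prc1, 2.07 for Ect2 and 1.12 for Anln, and Top2a was at 2.73 and Mki67 at 1.81. Agent, dose, time and cell makeup all differ between the tumors and the cultures and cannot be told apart.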

How the results depend on the processing

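The numbers of called mitotic genes stayed within 1.5 times their value under each alternative run. The count was 33 after DON, 34 without Gln and 0 on DRP-104 in each of them, 19 to 25 between DON and Gln-free cells, and 27 to 33 and 30 to 32 for the tumor effect against DON and against Gln withdrawal. Replicate numbers did not pair the samples (correlations of same-numbered deviations from -0.36 to 0.038), and with a replicate block the counts were 33, 34, 0, 24, 32 and 30. Differently numbered tumors correlated from -0.32 (DRP-104 tumor 2 with vehicle tumor 1) to 0.46 (DRP-104 tumor 3 with vehicle tumor 1). A structure shared between tumors under other numbers was not tested. Over all genes, DESeq2 called 56 on DRP-104 where limma called 0, and at an adjusted p under 0.01 the interaction calls went from 4989 to 3007 (DON) and from 5496 to 3429 (Gln withdrawal). Quantile normalization moved the median of all genes after DON from 0.023 to 0.13 and that of the members from -1.97 to -1.88, and the interaction with DON from -0.017 to -0.13 over all genes, where 27 members were called. Calls against DON were lost there for Cdca8, Incenp, Mad2l1, Ndc80, Spc25 and Ttk, and the first 3 were also lost on leaving out any of several libraries of all 4 groups. Without DON cells 2 the DON to Gln-free calls of Cenpe, Nusap1 and Tpx2 were lost, without DON cells 3 or Gln-free cells 1 that of Anln, while Cdk1, Cenpf and Ube2c were gained without at least 1 library. The cause was not tested. Signs turned in the following log2 values, none of which was called. Between DON and Gln-free cells Plk1 was 0.064 (edgeR) and 0.043 (DESeq2), Bub3 0.0083 (edgeR) and 0.080 (quantile), and Mad2l1 0.0058 and 0.050. With single libraries left out the range was -0.20 to 0.20 for Plk1, -0.047 to 0.020 for Bub3, -0.15 to 0.10 for Mad2l1, -0.23 to 0.046 for Cdca8, -0.081 to 0.20 for Kif11, -0.22 to 0.038 for Prc1 and -0.031 to 0.34 for Ttk. For Pttg1 it was -0.061 to 0.10 after DON and -0.22 to 0.017 for the tumor effect against DON. In the tumor FPKM table Cenpa was -0.26, Kif11 -0.42, Kif20a 0.012, Kif23 -0.31 and Mki67 -0.39. With single tumors left out the range was -0.22 to 0.068 for Birc5, -0.18 to 0.12 for Bub1, -0.027 to 0.17 for Cenpa, -0.12 to 0.025 for Cenpe, -0.18 to 0.30 for Kif23, -0.17 to 0.15 for Kif2c, -0.084 to 0.087 for Mki67, -0.18 to 0.0086 for Nusap1, -0.18 to 0.052 for Pttg1 and -0.31 to 0.066 for Ttk. Ndc80 was -0.024 for the tumor effect against Gln withdrawal with quantile normalization. With 3 libraries a group, the tumor intervals are wide, and greater read depth would reduce only their counting error.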
